A study of Mus musculus with 10 samples.

Results

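The comparison described here sets skin epithelial cells in which Hedgehog signalling was switched on from 1 promoter against cells in which it was switched on from another. It covers 4 of the 10 bulk RNA-seq libraries of the study, 2 from Krt14-CREER/Rosa-SmoM2 mice and 2 from Inv-CREER/Rosa-SmoM2 mice, all labelled 8w TAM, which is read here as 8 weeks after tamoxifen. A gene entered the comparison if its deposited value was at least 10 in 2 or more of these 4 libraries, which held for 20559 of the 49671 genes in the table. The choice of libraries rests on the labels and the choice of genes on their level alone, with no use of the difference between the groups.

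CREER is a Cre recombinase that acts on its target only once tamoxifen is given. Krt14-CREER is driven by the promoter of keratin 14, which is active in the basal layer of the epidermis and in hair follicle epithelium, including their stem cells. Inv-CREER is driven by the promoter of involucrin, a cornified envelope protein made by keratinocytes that have begun to differentiate. In both groups Cre releases SmoM2, a constitutively active form of Smoothened fused to a yellow fluorescent protein (YFP), from the Rosa locus. The cells were sorted from skin epidermis for SmoM2-YFP, so each library holds the recombined cells and their descendants, not the whole epidermis. All 4 libraries carry the SmoM2 allele and no change at the gene for Survivin, the gene that other groups of the study delete or overexpress. Both Inv libraries are named as pools in the labels, without saying of what, and the Krt14 libraries are not, so pooling and driver cannot be told apart. The labels state no strain, age, sex or body site. Nor do they say that the 2 libraries of a group came from separate animals, so the spread between libraries of a group may be technical. Each p-value rests on that spread taken over all 5 groups of the study (10 libraries), not over the 2 compared groups alone. A gene that is uneven in another group can therefore be left uncalled here. With 2 libraries against 2, an exact two-sided permutation test of a single gene cannot go below p = 0.333, so all tests here are limma's.

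The deposited values are read counts that had been scaled to nearly the same sum in each library (20012596 to 20014054) and rounded to whole numbers, and they are called normalised values here. The smallest step between low values gave back the reads behind them, 7843143 to 8857690 reads for each of the 4 libraries. A value of 6.77 to 7.65 corresponds to 3 reads, the limit that a count of 0 allows. Across genes, log2 values of the 2 libraries of a group correlated at 0.977 (Krt14) and 0.983 (Inv), and those of libraries from different groups at 0.922 to 0.930, with all libraries sharing 1 annotation and kit. The chi-square of recovered reads between the libraries of a pair was 2.475 per gene for Krt14 and 3.421 for Inv. It was 19.04 for the pair labelled Survivin GOF, which also enters the shared spread. Mitochondrial genes took 2.47% to 3.11% of each of the 4 libraries. Differences below are log2 differences of the value plus 1, Krt14 minus Inv, with the standard error (SE) from limma, and a gene is called changed at a limma adjusted p (Benjamini-Hochberg over all 20559 genes) under 0.05.

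Smoothened passes the Hedgehog signal to the Gli transcription factors, which raise Gli1, Ptch1 and Hhip, the latter pair being feedback inhibitors of the pathway. Basal cell carcinoma is the skin tumour that this signal drives. In mice, SmoM2 switched on through Krt14-CREER is known to give such tumours, whereas through Inv-CREER it mostly gives growths that stop short of invasion. Survivin, the product of Birc5, is a subunit of the chromosomal passenger complex that guides chromosome segregation, and it also belongs to the inhibitor of apoptosis family.

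Of the 20559 genes tested, 4343 were called changed, which is 21.1% of them. Of these, 1811 were higher in the Krt14 libraries (8.81% of tested genes) and 2532 were lower (12.3%). Of tested protein-coding genes 26% were called, so shares over all tested genes understate the background for lists of such genes. At least 2-fold changes numbered 932 higher and 1416 lower, and at least 4-fold changes 405 and 627. The 2 groups did not overlap for 66% of all tested genes, so a lack of overlap in a single gene is common here. The median log2 difference over all tested genes was -0.09. Rescaling the libraries by median ratios moved that median to -0.003 and the share of changed genes higher in Krt14 from 41.7% to 51.5%, so which direction holds more genes depends on the scaling. Leaving out 1 library lowered the number of changed genes to 2319 (without Krt14 library 1), 2140 (without Krt14 library 2), 2164 (without Inv library 1) or 1975 (without Inv library 2). None of the 4343 genes took the opposite sign in any of these fits. That says little, since they were chosen for a difference in the same libraries. Well measured genes were called more often, 29.6% of those with a mean value of 1000 or more against 12.1% of those under 100, where the median SE was 0.583 against 0.117.

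**Figure D1:**
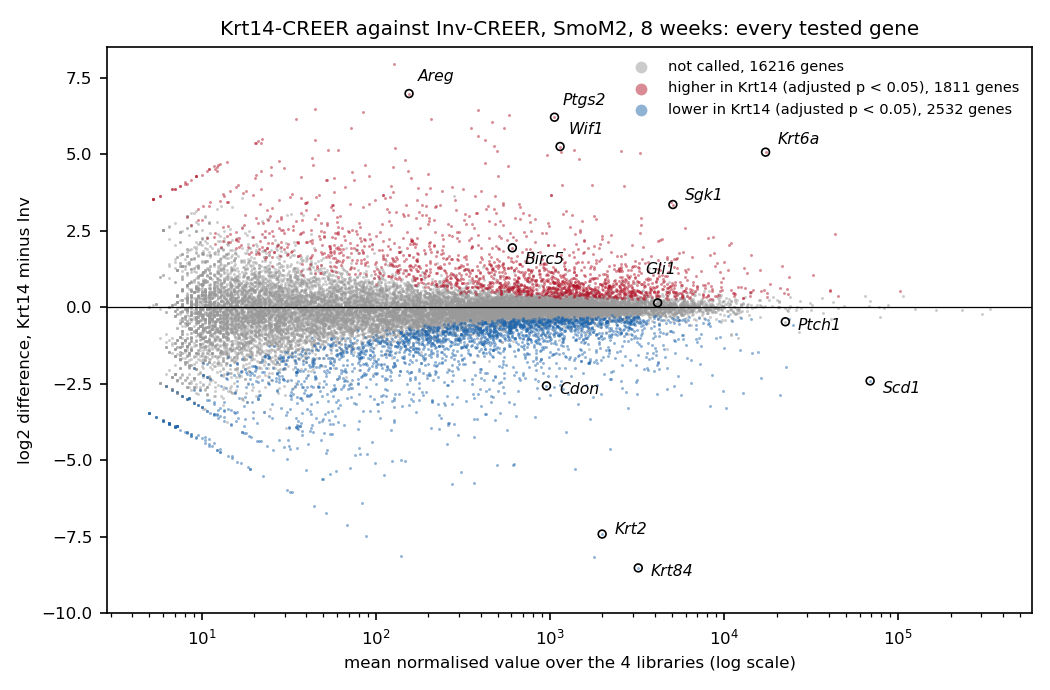
Log2 difference (Krt14 minus Inv, vertical axis) against the mean normalised value over the 4 libraries (horizontal axis, log scale) for the 20559 tested genes, with the 1811 genes called higher in Krt14 in red, the 2532 called lower in blue and the rest in grey. Krt6a (5.07) and Scd1 (-2.41) are changed at high level, Krt84 (-8.51) is the largest fall among the genes named, and Gli1 (0.14) lies near 0.

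The 12 largest rises included proteases and cornified envelope precursors, and the 12 largest falls included hard keratins. Among the rises, Tmprss11b, a membrane serine protease, had values of 188 and 319 in the Krt14 libraries and was listed at 0 in both Inv libraries, at least 37.3-fold higher when the Inv libraries are set to 3 reads each. Rbp2, a retinol-binding protein, was 713 and 819 against 5 and 12. Tubb3, a beta tubulin best known from neurons, was 336 and 482 against 3 and 7. In each of these genes the Inv values lie at or near the limit of 3 reads, so the exact fold is not fixed. Klk10, a kallikrein protease, was 912 and 1230 against 30 and 10 (log2 difference 5.84 ± 0.41, limma adjusted p = 6.46e-06). Gpx2, a glutathione peroxidase, was 775 and 743 against 30 and 7 (5.59 ± 0.52, limma adjusted p = 3.49e-05). The other genes of the 12 largest rises were Areg, Ptgs2, S100a9, Sprr1b and Sprr1a, described below, Teddm3 (135 and 202 against 0 and 3) and Rnase2b (149 and 133 against 0 and 5), the last no longer called without Inv library 1.

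Falls reached further. Krt84, a type II hard keratin (chr15:101525026-101532820, minus strand, GRCm38), was 17 and 16 in the Krt14 libraries and 6803 and 6016 in the Inv libraries, 388-fold higher in Inv (log2 difference -8.51 ± 0.57, limma adjusted p = 5.64e-06). Krt36, a type I hard keratin, was 12 and 11 against 3700 and 3428 (310-fold higher in Inv, -8.16 ± 0.68, limma adjusted p = 1.82e-05). Krt2, a keratin of the upper epidermal layers, was 31 and 16 against 3966 and 3959 (169-fold higher in Inv, -7.41 ± 0.37, limma adjusted p = 2.45e-06). All 3 keratins were thus among the well expressed genes of the Inv libraries and close to the detection limit in the Krt14 libraries. Gabrp, a GABA receptor subunit, was listed at 0 in both Krt14 libraries and at 253 and 308 in the Inv libraries, at least 38.5-fold higher in Inv. Spib, an Ets family transcription factor, was likewise at 0 against 155 and 120, at least 18.8-fold higher in Inv. Serpina3a, Myrip, Cadps2, Grid1, Gbp9, Tmeff2 and Zfp979 make up the rest of the 12 largest falls, with no Krt14 value above 13. Of these, Zfp979 was no longer called when Krt14 library 2, Inv library 1 or Inv library 2 was left out, without the filter on low values, or in the fit to recovered reads.

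The drivers' own genes and the layer markers gave a check of what was sorted. Krt14 itself was 70080 and 75213 in the Krt14 libraries and 58626 and 54039 in the Inv libraries (log2 difference 0.37 ± 0.14), and Krt5, its basal partner, 118123 and 122426 against 94430 and 91286 (0.37 ± 0.20). Neither passed the test (limma adjusted p = 0.0986 and 0.218), but both were called higher when only the 4 libraries were fitted, without the Survivin GOF group and with array weights (lowest adjusted p 0.00869 and 0.00531), and Krt14 also with median-of-ratios rescaling. Both basal keratins were therefore among the most abundant transcripts in both groups, including the group whose Cre is driven from the promoter of a differentiation gene. Ivl, the involucrin gene, was 165 and 258 in the Krt14 libraries and 78 and 43 in the Inv libraries, 3.50-fold higher in Krt14 (1.81 ± 0.36, limma adjusted p = 0.00467), so the Inv libraries had the lower level of the transcript whose promoter drives their Cre. That call was lost without Krt14 library 2 or Inv library 2, with adjusted p up to 0.0637 over all alternatives. Krt10, an early differentiation keratin, was 17275 and 15306 against 11766 and 11958 and was not called (0.46 ± 0.28, limma adjusted p = 0.282), except when only the 4 libraries were fitted. The epithelial markers Epcam and Cdh1 were abundant in every library, with Epcam at 4822 and 4733 in the Krt14 libraries against 1789 and 1685 (1.46 ± 0.14, limma adjusted p = 3.68e-05) and Cdh1 at 13198 and 12847 against 6792 and 6722 (0.95 ± 0.09, limma adjusted p = 5.52e-05).

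Some Hedgehog components and targets differed between the groups, and Smo and Gli1 were not called. Smo was 7484 and 7013 in the Krt14 libraries and 7436 and 6743 in the Inv libraries (log2 difference 0.03 ± 0.11, limma adjusted p = 0.876), and whether this row includes reads of the SmoM2 transgene is not stated in the labels. Gli1, the most direct readout of the pathway, was 4546 and 4154 against 4194 and 3699 (0.14 ± 0.11, limma adjusted p = 0.405). The groups overlapped for both genes. Ptch1, the receptor and feedback inhibitor, was 19937 and 17710 against 26293 and 25906, without overlap but not called (-0.47 ± 0.27, limma adjusted p = 0.246). Fitted on the 4 libraries alone it was called lower (limma adjusted p = 0.00285). The fit to all libraries takes in pairs that differ more in Ptch1, 26265 and 14710 in Survivin GOF and 15284 and 8556 in Krt14 at 6 weeks. Of the 12 listed Hedgehog target genes, all tested, 3 rose, 1 fell and 8 were not called, with a median difference of 0.14 beside -0.09 over all tested genes.

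The single target that fell was Hhip, a decoy receptor for Hedgehog ligands, at 1449 and 1240 in the Krt14 libraries against 4294 and 4555 in the Inv libraries (3.29-fold higher in Inv, log2 difference -1.72 ± 0.44, limma adjusted p = 0.0171). The groups do not overlap, but the call was lost without any 1 of the 4 libraries, without the filter on low values and with robust variance estimates (adjusted p up to 0.114). Rises were seen in Prdm1, a transcriptional repressor, at 1023 and 1219 against 137 and 156 (7.65-fold, limma adjusted p = 0.000137), in Foxe1, a forkhead factor of the hair follicle, at 924 and 753 against 139 and 116 (6.58-fold, limma adjusted p = 0.000745), and in Hsd11b2, which inactivates glucocorticoids, at 218 and 166 against 44 and 57 (3.80-fold, limma adjusted p = 0.0251). The last of these was lost without any 1 library.

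Among 17 components of the pathway, 16 were tested, 2 rose and 4 fell, with a median of 0.02. The coreceptors moved in opposite directions. Cdon was 250 and 301 in the Krt14 libraries and 1568 and 1701 in the Inv libraries, 5.93-fold higher in Inv (log2 difference -2.57 ± 0.22, limma adjusted p = 2.2e-05). Gas1 was 8551 and 8183 against 3741 and 3390, 2.35-fold higher in Krt14 (1.23 ± 0.23, limma adjusted p = 0.00316). Boc, the coreceptor most like Cdon, was not called at 1504 and 1643 against 1275 and 1204. The ligand gene Shh was 0 and 3 against 32 and 16, all low values, and its call was lost without Krt14 library 1, Inv library 1 or Inv library 2. Gpr161, a receptor in the primary cilium that restrains the pathway, rose by 0.30, a call lost without any 1 library, with the replicate block, with the filter over all 10 libraries and in the fit to recovered reads. Hhat, which attaches palmitate to the ligand, and Scube2, which helps release it, fell by 0.90 and 1.62. The number of components called lower was 1 without Krt14 library 1, Inv library 1 or Inv library 2, and 2 without Krt14 library 2.

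Birc5 (chr11:117849251-117855743, plus strand, GRCm38), the Survivin gene, was 1005 and 926 in the Krt14 libraries and 237 and 265 in the Inv libraries, 3.85-fold higher in Krt14 (log2 difference 1.94 ± 0.28, limma adjusted p = 0.000716). The groups were far apart compared with the gap within either. Survivin works with Incenp, the scaffold of the chromosomal passenger complex, the kinase Aurkb and the targeting subunit Cdca8. Incenp was 2668 and 2589 against 1912 and 1750 (0.52 ± 0.09, limma adjusted p = 0.00231). Aurkb, named here to complete the complex after its values were seen, was 845 and 916 against 610 and 610 (0.53 ± 0.11, limma adjusted p = 0.00724). Cdca8 was 1583 and 1546 against 999 and 971 (0.67 ± 0.10, limma adjusted p = 0.00103). All 4 subunits rose, with the largest difference in Birc5, and Gsg2, the haspin kinase that helps recruit the complex, was not called at 262 and 227 against 169 and 201.

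Most mitosis genes rose, and most DNA replication genes were not called. Of 35 listed G2/M and mitosis genes, all tested, 28 rose and none fell (8.81% of all tested genes rose), with differences of 0.25 to 1.21 and a median of 0.70. Anln, a contractile ring protein, was 4949 and 5241 in the Krt14 libraries against 2292 and 2184 (2.28-fold, log2 difference 1.19 ± 0.09, limma adjusted p = 1.41e-05). Top2a, the topoisomerase that untangles chromosomes before they separate, was 13067 and 11567 against 6828 and 7079 (0.82 ± 0.09, limma adjusted p = 0.000117). Kif11, a spindle motor, was 3704 and 3586 against 2178 and 2247 (0.72 ± 0.09, limma adjusted p = 0.000327). Birc5 exceeded each of the 35 in its difference. Between 19 and 25 of the 35 were called with 1 library left out.

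Of 32 genes of DNA replication and S phase, by contrast, 2 rose and 30 were not called, with a median of 0.05. The pair that rose makes nucleotides. Tk1, thymidine kinase, was 887 and 987 against 547 and 411 (1.96-fold, log2 difference 0.98 ± 0.17, limma adjusted p = 0.0022), and Rrm2, a ribonucleotide reductase subunit, 2235 and 2206 against 1422 and 1373 (0.67 ± 0.13, limma adjusted p = 0.00381). The count reached 6 with median-of-ratios rescaling and 7 when only the 4 libraries were fitted, out of the same 32. Among 17 G1 cyclins, E2F genes and CDK inhibitors, 3 rose, namely E2f2, E2f8 and Cdkn2d, and 1 of the 17 was called higher without Krt14 library 2 or Inv library 2. The share of these 17 that was called, 17.65%, was below the 21.1% of all tested genes. Of 18 homologous recombination and Fanconi genes, 1, Fanca, rose and 3 fell, among them Atr (-0.59) and Brca2 (-0.48). The share called, 22.2%, was near the 21.1% of all tested genes. With any 1 library left out, 0 or 1 of the 18 was called lower, and the call of Fanca was lost without Krt14 library 1, Krt14 library 2 or Inv library 2.

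**Figure D2:**
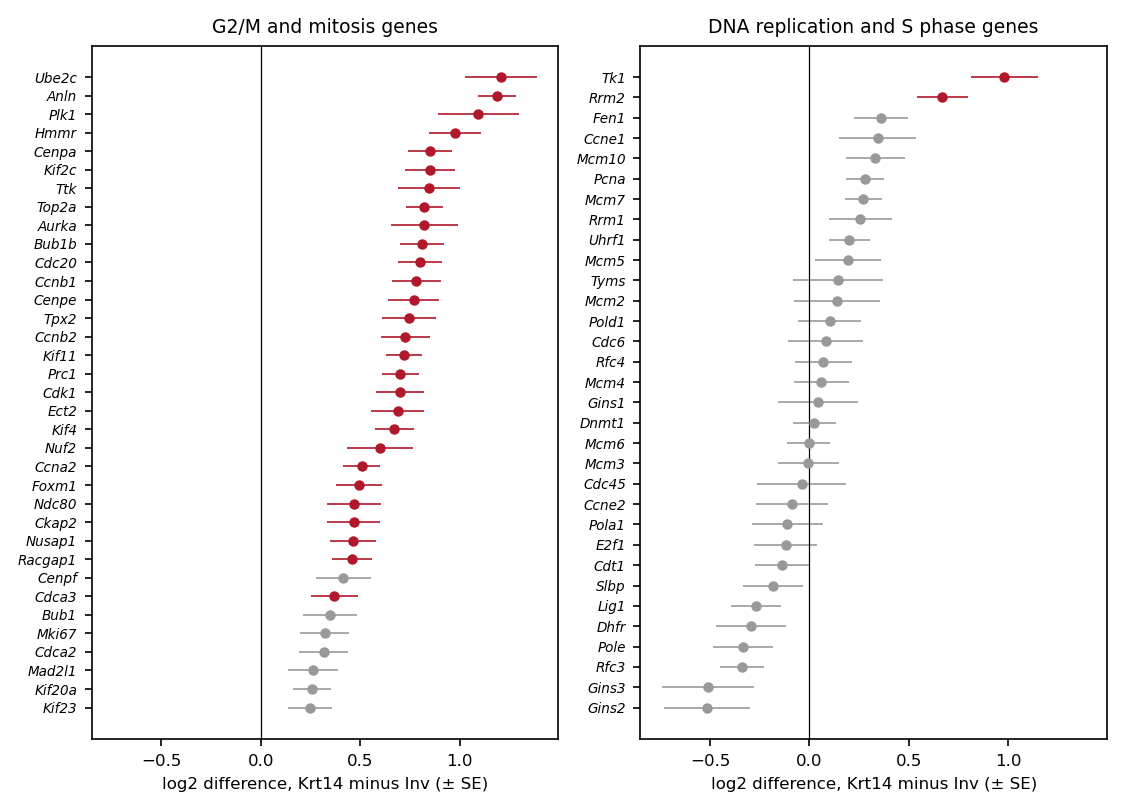
Log2 difference (Krt14 minus Inv) with its SE for each of the 35 G2/M and mitosis genes (left) and the 32 DNA replication and S phase genes (right), with genes called higher in red and genes not called in grey. All 35 points on the left lie above 0, whereas those on the right lie on both sides of it, with Tk1 (0.98) and Rrm2 (0.67) at the top.

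Most promoters of the mitosis genes hold a CCAAT box, the letters CCAAT on either strand (ATTGG as read from the other), where the factor NF-Y can bind. In the 250 bases before the start, from RefSeq's table for GRCm38.p6, 24 of the 30 mitosis genes found there hold it, against 39.4% of the tested genes found in the table. The letters TTTGAA, a cell cycle homology region, were in 11 of 30, against 13.2%. The promoter of Top2a is shown because it holds the CCAAT letters 6 times, marked in capitals (chr11:99024190-99024439, minus strand), between 227 and 58 bases before the start.

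Top2a: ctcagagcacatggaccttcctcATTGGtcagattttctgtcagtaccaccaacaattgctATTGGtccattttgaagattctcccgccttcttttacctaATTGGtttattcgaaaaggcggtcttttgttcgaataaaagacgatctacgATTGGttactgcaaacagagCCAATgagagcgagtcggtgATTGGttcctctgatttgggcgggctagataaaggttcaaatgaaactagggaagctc

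The wound and hyperproliferation list had the highest median of the lists described. Of 20 such genes, 19 were tested, 17 rose and none fell, with a median log2 difference of 3.44, or 3.39 with Sprr2d, which is at 0 in both Inv libraries, set to its bound. Krt6a (chr15:101689910-101694307, minus strand, GRCm38), a keratin induced in wounded and overgrowing epidermis, was 31648 and 35496 in the Krt14 libraries and 997 and 1003 in the Inv libraries (33.6-fold, 5.07 ± 0.27, limma adjusted p = 2.76e-06). Krt6b, its close copy, was 6404 and 6291 against 192 and 190 (33.2-fold, limma adjusted p = 2.77e-06), and reads shared between the 2 copies could have been split or dropped in counting. Gjb2, connexin 26, was 6052 and 5669 against 815 and 741 (7.53-fold, 2.91 ± 0.15, limma adjusted p = 2.45e-06). In every one of these genes the lowest Krt14 value was several times the highest Inv value. S100a9, an alarmin made by stressed keratinocytes and by neutrophils, was 741 and 1089 against 10 and 16 (6.04 ± 0.49, limma adjusted p = 1.63e-05). All 7 listed neutrophil markers failed the level filter, and their summed value was 17 in each Krt14 library and 11 and 9 in the Inv libraries. Lcn2 and Il24 were tested but not called. The number called was 11 without Krt14 library 1 or 2, 12 without Inv library 1 and 13 without Inv library 2.

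Sprr1b and Sprr1a are cornified envelope precursors of stressed epidermis that stand among the 12 largest rises. Sprr1b was 727 and 651 in the Krt14 libraries against 12 and 10 (62.6-fold, log2 difference 5.85 ± 0.40, limma adjusted p = 6.21e-06) and Sprr1a 926 and 941 against 19 and 28 (39.7-fold, 5.28 ± 0.45, limma adjusted p = 1.97e-05). Both promoters hold the AP-1 letters TGANTCA, where Fos and Jun dimers can bind, searched on both strands. These letters were in 6 of the 15 wound genes found in the RefSeq table and in 6.01% of tested genes found there. The 2 sequences, with the letters in capitals, are from GRCm38.p6, chr3:92438780-92439029 for Sprr1b and chr3:92485882-92486131 for Sprr1a, both on the minus strand. Sprr1b has 1 match 111 bases before the start, and Sprr1a has 2, at 146 and 116 bases.

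Sprr1b: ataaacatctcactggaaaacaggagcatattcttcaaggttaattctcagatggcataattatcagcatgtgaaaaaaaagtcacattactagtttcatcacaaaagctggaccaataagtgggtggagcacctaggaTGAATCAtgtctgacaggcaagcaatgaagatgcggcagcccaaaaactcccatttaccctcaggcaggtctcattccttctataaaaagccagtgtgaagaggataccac

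Sprr1a: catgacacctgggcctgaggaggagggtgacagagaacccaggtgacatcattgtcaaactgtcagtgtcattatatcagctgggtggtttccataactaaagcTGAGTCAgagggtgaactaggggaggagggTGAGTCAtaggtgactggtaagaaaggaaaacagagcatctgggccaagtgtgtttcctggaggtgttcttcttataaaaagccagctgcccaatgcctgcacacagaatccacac

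Growth factor genes of the EGF family rose with them. Of 13 ligands, receptors and regulators, all tested, 8 rose and 1 fell, with a median of 1.23. The ligands Areg, Ereg and Nrg1 led. Areg, amphiregulin, was 310 and 306 in the Krt14 libraries and 0 and 5 in the Inv libraries (log2 difference 6.98 ± 0.91, limma adjusted p = 0.00038). Ereg, epiregulin, was 246 and 261 against 5 and 7 (5.20 ± 0.41, limma adjusted p = 1.4e-05). Nrg1, neuregulin 1, which acts through ErbB3 and ErbB4, was 1803 and 2716 against 73 and 57 (34.8-fold, 5.08 ± 0.27, limma adjusted p = 2.74e-06). For Areg and Ereg, the Inv values were at the limit of 3 reads. The receptor Egfr moved the other way, at 8387 and 7449 against 10423 and 11103 (-0.44 ± 0.11, limma adjusted p = 0.0137), a call lost without Krt14 library 2, Inv library 1 or Inv library 2. Lrig1, which restrains ErbB signalling and marks the upper hair follicle, was 8757 and 8589 against 3755 and 3627 (2.35-fold, 1.23 ± 0.10, limma adjusted p = 1.98e-05).

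Ptgs2, the inducible cyclooxygenase of prostaglandin synthesis, was 2115 and 2076 in the Krt14 libraries against 30 and 25 (76.2-fold, log2 difference 6.21 ± 0.29, limma adjusted p = 2.02e-06). Sgk1, a kinase downstream of PI3K that is induced by serum and by glucocorticoids, was 8063 and 10458 against 892 and 901 (10.3-fold, 3.36 ± 0.48, limma adjusted p = 0.000658). In its list, 2 of 20 PI3K, SGK and mTOR genes rose, the other being Sgk3 (0.60 ± 0.11), and 1, Pik3r3, fell, a call lost without any 1 library. The share called in the list of Sgk1, 15%, was below the 21.1% of all tested genes. Of 14 tested YAP and TAZ target genes, 6 rose and 1, Nuak2, fell, the last lost without any 1 library and under both other scalings. Cyr61, a matricellular protein, was 1664 and 1737 against 242 and 265 (6.71-fold, limma adjusted p = 1.26e-05), and F3, tissue factor, 396 and 322 against 51 and 43 (7.64-fold, limma adjusted p = 7.11e-05).

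In the list of each epidermal layer, more genes were called higher than lower in the Krt14 libraries, the basal layer included. Of 21 basal and basement membrane adhesion genes, 12 rose and none fell (median 0.41). Sdc1, a heparan sulphate proteoglycan, was 12294 and 13016 against 4226 and 3577 (3.24-fold, log2 difference 1.70 ± 0.12, limma adjusted p = 7.03e-06), and Itgb6, an integrin of wound keratinocytes, 2050 and 2525 against 544 and 536 (4.24-fold, 2.07 ± 0.22, limma adjusted p = 8.38e-05). Of 13 desmosome genes, 7 rose and none fell (median 0.53). Dsg3, the basal desmoglein, was 13920 and 15550 against 5161 and 5501 (2.76-fold, 1.47 ± 0.10, limma adjusted p = 7.03e-06), and Dsc1, a desmocollin of the upper layers, 2719 and 2548 against 681 and 685 (3.86-fold, limma adjusted p = 7.11e-05).

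Of 20 spinous layer genes, 11 rose and 2 fell (median 1.25), and of 19 tested granular and cornified envelope genes, 10 rose and 1 fell (median 1.94), out of 25 listed. Serpinb2, a protease inhibitor of differentiating and stressed keratinocytes, was 3089 and 3479 in the Krt14 libraries against 171 and 247 (15.7-fold, log2 difference 3.99 ± 0.27, limma adjusted p = 6.31e-06). Klk7, a protease of shedding corneocytes, was 810 and 816 against 26 and 34 (27.1-fold, 4.73 ± 0.34, limma adjusted p = 8.44e-06), and Spink5, its inhibitor, 2052 and 2423 against 260 and 242 (8.91-fold, 3.15 ± 0.26, limma adjusted p = 1.62e-05). A protease and its inhibitor therefore rose in the same libraries. Abca12, a lipid transporter of the barrier, was 2952 and 3491 against 403 and 479 (7.30-fold, limma adjusted p = 1.34e-05). The exceptions were Krt2 and Fabp5, a fatty acid binding protein at 4694 and 4088 against 9468 and 9610 (-1.12 ± 0.17, limma adjusted p = 0.00108), and Tgm3, a transglutaminase of the cornified envelope and hair, at 361 and 350 against 799 and 829 (-1.19 ± 0.35, limma adjusted p = 0.0344), the last lost without any 1 library. The late envelope gene Lor was low in all 4 libraries, at 56 and 54 against 41 and 28.

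Hair follicle lists differed in the direction of most of their called genes. Of 15 tested genes of the bulge, isthmus and infundibulum, 9 rose and 1 fell, with a median of 1.48. Lgr6, a stem cell receptor of the isthmus and interfollicular epidermis, was 7112 and 6564 against 1602 and 1482 (4.43-fold, log2 difference 2.15 ± 0.19, limma adjusted p = 2.29e-05). Defb6, a defensin of the upper follicle, was 1502 and 1622 against 340 and 436 (4.03-fold, limma adjusted p = 1.82e-05), and Fst, follistatin, 2506 and 2183 against 431 and 463 (5.24-fold, limma adjusted p = 1.38e-05). Krt24, a keratin of the bulge, was the gene that fell, at 56 and 49 against 274 and 251. Called genes of the inner root sheath and hair shaft went the other way, with none of 16 tested higher, 11 not called and 5 lower (median -0.76). They were Krt36, Krt25, Krt73, Msx2 and the transcription factor Gata3, the last at 3105 and 2596 against 4990 and 5121 (-0.83 ± 0.13, limma adjusted p = 0.00144). Krt73 and Msx2, named after their values were seen, complete the count, and Krt25 was no longer called without Inv library 2. The shaft keratins Krt31, Krt33a and Krt34 failed the level filter, so the high Krt36 of the Inv libraries came without them. The number lower was 4, 3, 3 and 2 without Krt14 library 1, Krt14 library 2, Inv library 1 and Inv library 2.

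Embryonic hair follicle progenitor genes, which Hedgehog-driven skin tumours are known to express, gave 6 rises and 3 falls among 20 tested, with a median of 0.01. Nfatc1, a transcription factor of bulge stem cells and the early follicle, was 10381 and 10121 in the Krt14 libraries against 1796 and 1601 (6.04-fold, log2 difference 2.59 ± 0.15, limma adjusted p = 2.79e-06). Krt17 was 70890 and 74264 against 14530 and 13343 (5.21-fold, 2.38 ± 0.25, limma adjusted p = 8.39e-05). By level these were among the strongest genes that changed. On the lower side stood Lef1, the nuclear partner of beta-catenin, at 674 and 526 against 1213 and 1168 (1.98-fold higher in Inv, limma adjusted p = 0.0201, lost without any 1 library), Nrcam (-1.05 ± 0.23, lost without Krt14 library 2, Inv library 1 or Inv library 2) and Wnt10b. The 2 related Wnt10 ligands differed in direction. Wnt10b was 56 and 23 against 583 and 466 (13.3-fold higher in Inv, limma adjusted p = 0.000466), while Wnt10a was 660 and 714 against 374 and 328 (1.96-fold higher in Krt14, limma adjusted p = 0.00304). The number higher was 3 without Krt14 library 1 or Inv library 2.

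Of 19 tested Wnt receptors, feedback and target genes, 7 rose and 2 fell (median 0.26). The largest difference was in Wif1, a secreted inhibitor that binds Wnt proteins, at 2177 and 2278 in the Krt14 libraries against 69 and 48 (38.1-fold, log2 difference 5.25 ± 0.39, limma adjusted p = 9.36e-06). Fzd7, a Wnt receptor, was 6503 and 6304 against 3757 and 3622 (0.80 ± 0.11, limma adjusted p = 0.000425). Tnfrsf19, a Wnt-responsive receptor also named Troy, was 799 and 635 against 4549 and 4383 (6.23-fold higher in Inv, -2.65 ± 0.37, limma adjusted p = 0.000608), and Nkd1, a feedback inhibitor, 56 and 59 against 258 and 233 (4.27-fold higher in Inv). Secreted and intracellular inhibitors of the pathway therefore did not move in 1 direction. Among 19 tested TGF-beta and BMP genes, 5 rose and 6 fell. The BMP ligands differed, with Bmp7 at 3434 and 3448 against 1552 and 1502 (2.25-fold, limma adjusted p = 0.0018) and Bmp2 at 44 and 26 against 301 and 280 (8.30-fold higher in Inv, limma adjusted p = 5.94e-05). Id2, a BMP target, was 597 and 467 against 1188 and 1249 (-1.20 ± 0.19, limma adjusted p = 0.0012). The 6 falls became 3 or 2 with any 1 library left out. Notch3, Hes1 and Notch1 rose by 0.82, 0.49 and 0.37 among 13 Notch genes, of which 23.1% were called, near the 21.1% of all tested genes. Each of these calls was lost with any 1 library left out.

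The sebaceous gland list had the lowest median of the lists described. Of 16, all tested, 14 fell and none rose (12.3% of all tested genes fell), with a median of -2.31. Scd1, a fatty acid desaturase, was 22984 and 20745 in the Krt14 libraries and 113521 and 118185 in the Inv libraries (log2 difference -2.41 ± 0.22, limma adjusted p = 3.38e-05), the Inv values being among the highest of any gene described here. Far2, which makes fatty alcohols for wax esters, was 2751 and 2395 against 16075 and 17935 (6.61-fold higher in Inv, -2.73 ± 0.15, limma adjusted p = 2.77e-06), and Soat1, a cholesterol ester synthase, 3075 and 2948 against 13750 and 14320 (4.66-fold higher in Inv, limma adjusted p = 2.79e-06). Scd1 was added to those chosen by rule after its values were seen, for its level. With any 1 library left out, 12 or 13 of the 16 were called lower. Bulk values cannot tell fewer cells of a type from less RNA per cell, here or in any other list.

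Many lipid synthesis genes outside the gland list fell as well. Of 21 genes of cholesterol synthesis and uptake, 13 fell and 2 rose (median -1.06). Lss, lanosterol synthase, was 1722 and 1630 against 7074 and 6510 (4.05-fold higher in Inv, log2 difference -2.02 ± 0.13, limma adjusted p = 4.6e-06). Hmgcs1, an early step, was 8190 and 6934 against 20420 and 21911 (2.80-fold higher in Inv, -1.49 ± 0.10, limma adjusted p = 6.46e-06). Both enzymes were lower in Krt14, but not all members followed. Dhcr7, another late step, was 1016 and 990 against 496 and 522 (1.97-fold higher in Krt14, 0.98 ± 0.21, limma adjusted p = 0.00709), a call lost without any 1 library. The regulator Srebf2 (6781 and 6717 against 7099 and 5846) was not called.

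Of 14 tested fatty acid synthesis genes, 7 fell and 2 rose (median -0.56). Elovl6 was 5553 and 4585 against 34645 and 38597 (7.22-fold higher in Inv, log2 difference -2.86 ± 0.16, limma adjusted p = 2.77e-06), and Fasn, fatty acid synthase, 8518 and 7995 against 24693 and 21178 (2.78-fold higher in Inv, -1.47 ± 0.11, limma adjusted p = 1.11e-05). The elongases differed among themselves, since Elovl1, which makes very long chains for barrier lipids, was 1067 and 1061 against 446 and 479 (2.30-fold higher in Krt14, 1.20 ± 0.12, limma adjusted p = 6.32e-05). Elovl7 rose by 1.15 ± 0.15.

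Promoters of the cholesterol genes are shown for 3 of the genes that fell. All 13 cholesterol genes found in the RefSeq table hold CCAAT letters in the 250 bases before the start, against 39.4% of tested genes found there. The sterol element letters TCACNCCAC, searched on both strands as 1 form of the site bound by SREBP, were in Hmgcs1 alone of the 13 and in 1.28% of tested genes. Capitals mark the sterol letters in Hmgcs1, 137 bases before the start, and the CCAAT letters in Lss, 62 bases before the start, and in Idi1, 45 and 14 bases before it. Idi1, isopentenyl diphosphate isomerase, was 2069 and 1717 against 7256 and 7689 (log2 difference -1.99 ± 0.14, limma adjusted p = 7.67e-06) and was chosen for its promoter after its values were seen. The regions, in GRCm38.p6 and all on the plus strand, are chr13:119690101-119690350 for Hmgcs1, chr10:76531355-76531604 for Lss and chr13:8885356-8885605 for Idi1.

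Hmgcs1: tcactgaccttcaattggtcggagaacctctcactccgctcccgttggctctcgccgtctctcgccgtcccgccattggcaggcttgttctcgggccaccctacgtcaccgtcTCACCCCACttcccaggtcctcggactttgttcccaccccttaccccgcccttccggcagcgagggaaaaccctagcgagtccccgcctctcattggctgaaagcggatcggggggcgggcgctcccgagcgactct

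Lss: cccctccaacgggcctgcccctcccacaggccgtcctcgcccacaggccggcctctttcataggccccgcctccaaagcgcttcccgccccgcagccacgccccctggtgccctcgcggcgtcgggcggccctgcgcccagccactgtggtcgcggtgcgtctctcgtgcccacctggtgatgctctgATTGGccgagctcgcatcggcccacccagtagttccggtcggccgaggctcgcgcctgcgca

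Idi1: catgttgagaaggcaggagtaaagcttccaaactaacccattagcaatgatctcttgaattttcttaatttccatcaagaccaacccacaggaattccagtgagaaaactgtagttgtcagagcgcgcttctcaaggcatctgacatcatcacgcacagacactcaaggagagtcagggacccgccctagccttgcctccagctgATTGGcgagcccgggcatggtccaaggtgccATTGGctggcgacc

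Among genes of energy metabolism, those of glycolysis changed more often than those of respiration, a difference between lists that was not tested. Of 22 glycolysis and hypoxia genes, 11 rose and 1 fell (median 0.57). Slc2a1, the glucose transporter GLUT1, was 3649 and 4129 against 1254 and 1202 (3.17-fold, log2 difference 1.66 ± 0.13, limma adjusted p = 1.12e-05), and Eno1, enolase, 5888 and 5858 against 2565 and 2342 (2.39-fold, 1.26 ± 0.13, limma adjusted p = 9.55e-05). Pdk1, which holds pyruvate back from the mitochondria, fell, at 1793 and 1778 against 3943 and 3667 (-1.09 ± 0.12, limma adjusted p = 8.76e-05). Of 20 nuclear-encoded respiratory chain genes, 1, Sdha, fell (-0.41 ± 0.11), a call lost without any 1 library, and the differences spanned -0.41 to 0.26. The number of glycolysis genes called higher was 6 without Krt14 library 2 or Inv library 2. Among 16 antioxidant genes, 3 rose and 6 fell, with Cat, catalase, at 2291 and 2066 against 5616 and 6176 (2.71-fold higher in Inv, -1.44 ± 0.12, limma adjusted p = 1.98e-05), opposite to Gpx2.

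Steroid hormone and survival genes gave mixed changes. Of 12 genes of the glucocorticoid receptor and its induced set, 5 fell and 2 rose (median -0.56). Nr3c1, the receptor, was 2238 and 2387 against 5206 and 5605 (2.34-fold higher in Inv, log2 difference -1.22 ± 0.13, limma adjusted p = 7.34e-05), and its targets Zbtb16, at 149 and 115 against 974 and 786 (6.67-fold higher in Inv, limma adjusted p = 0.00152), and Fkbp5 (-1.08 ± 0.22, lost without Krt14 library 2 or Inv library 2) fell too. Dusp1, which is also an immediate early gene, rose by 1.22 ± 0.22. The 5 falls became 3 or 2 with any 1 library left out. Of 17 tested Bcl2 and inhibitor of apoptosis genes, 5 fell and 1, Mcl1, rose (0.54 ± 0.15, lost without any 1 library). Other members of the family of Survivin fell, Birc3 at 348 and 424 against 1065 and 1132 (2.85-fold higher in Inv, -1.51 ± 0.15, limma adjusted p = 5.18e-05) and Birc2 at 704 and 776 against 1361 and 1367 (1.84-fold higher in Inv, -0.88 ± 0.11, limma adjusted p = 0.00024). The 5 falls in this list became 3 or 2 with any 1 library left out.

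Of 19 tested p53 response genes, 4 rose and 2 fell (31.6% called, beside 21.1% of all tested genes and 26% of protein-coding ones). The lowest p among the 4 rises was that of Phlda3 (1.08 ± 0.18, limma adjusted p = 0.00162), at 1051 and 1301 against 606 and 502. With 1 library left out, 3 (without Krt14 library 2) or 2 of them were called higher. Among 17 tested genes of senescence and its secreted factors, 6 rose and 2 fell (median 0.86). Those that rose include Mmp13, a collagenase, at 345 and 309 against 19 and 23 (15.6-fold, log2 difference 3.90 ± 0.38, limma adjusted p = 4.72e-05). Igfbp5 fell, at 137 and 204 against 861 and 730 (4.67-fold higher in Inv, limma adjusted p = 0.00278). Of 15 tested interferon response genes, 5 fell and none rose (median -0.73), with Gbp2 at 3 and 13 against 110 and 100. Over the alternatives this count ran from 1 with Krt14 library 2, Inv library 1 or Inv library 2 left out to 8 when only the 4 libraries were fitted. Of 12 antigen presentation genes, 3 fell (25%, beside 12.3% of all tested genes), Tapbp (-1.21 ± 0.19), Psmb8 (-1.23 ± 0.26) and Tap2 (-0.91 ± 0.23). The calls of Psmb8 and Tap2 were lost with some library left out, and 7 genes were called lower when only the 4 libraries were fitted. Of 16 DNA methylation and Polycomb genes, 2 fell, Cbx2 and Bmi1, which at 12.5% is near the 12.3% of all tested genes that fell. Both calls were lost with some library left out.

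Immediate early genes, which rise within minutes of a signal and also during tissue dissociation, differed between the groups. Of 20 such genes, 18 rose and none fell, with a median of 1.58. Fos was 14589 and 14061 in the Krt14 libraries against 3177 and 2651 (4.92-fold, log2 difference 2.30 ± 0.15, limma adjusted p = 4.64e-06), Fosb 6964 and 7112 against 1680 and 1394 (4.58-fold, limma adjusted p = 6.01e-06), and Nr4a1 2332 and 2418 against 330 and 262 (8.02-fold, limma adjusted p = 1.44e-05). The heat shock genes Hspa1a and Hspa1b were the 2 not called, while the heat shock genes Hsph1 and Hspa8 rose. Hspa1a was 1081 and 992 against 997 and 813. The part of dissociation in the rises of EGF ligand, wound and other genes was not tested. In the study's 2 Krt14-CREER/Rosa-SmoM2 libraries labelled 6w TAM, Fos was 3542 and 3515 and Fosb 1402 and 1467, close to the 8-week Inv values. Nr4a1 was 810 and 1103, between the 8-week groups, and the sum of the 20 listed genes was 61879 and 66697 there, 94311 and 94225 in the 8-week Krt14 libraries and 35333 and 31691 in the 8-week Inv libraries. In the same 6-week libraries Krt6a was 38838 and 53795, Sprr1b 662 and 1026, Areg 504 and 848 and Ptgs2 2558 and 3213, all above every 8-week Inv value. The promoter of Fos is shown with the cAMP element core TGACG in capitals, found 129 and 66 bases before the start (GRCm38.p6, chr12:85473640-85473889, plus strand). These letters, on either strand, were in 8 of the 16 listed genes found in the RefSeq table and in 28.8% of tested genes found there.

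Fos: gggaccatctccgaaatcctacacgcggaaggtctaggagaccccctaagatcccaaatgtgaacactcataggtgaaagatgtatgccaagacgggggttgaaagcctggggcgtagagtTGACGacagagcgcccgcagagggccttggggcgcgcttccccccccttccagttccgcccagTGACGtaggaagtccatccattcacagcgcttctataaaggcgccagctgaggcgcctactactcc

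For other genes, Birc5 was 961 and 1103 at 6 weeks, beside 1005 and 926 at 8 weeks, Cdon 399 and 396 beside 250 and 301, Krt84 8 and 11 beside 17 and 16, and Scd1 8140 and 7301 beside 22984 and 20745. The lipid gene Elovl6 was 1044 and 1160 at 6 weeks beside 5553 and 4585 at 8 weeks. Cdon and Krt84 were thus low and Birc5 high in both Krt14 groups. Gli1 was lower at 6 weeks (2921 and 2583) than in any 8-week library. Time differs here together with whatever else differed between the collections, and no test was made.

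**Figure D3:**
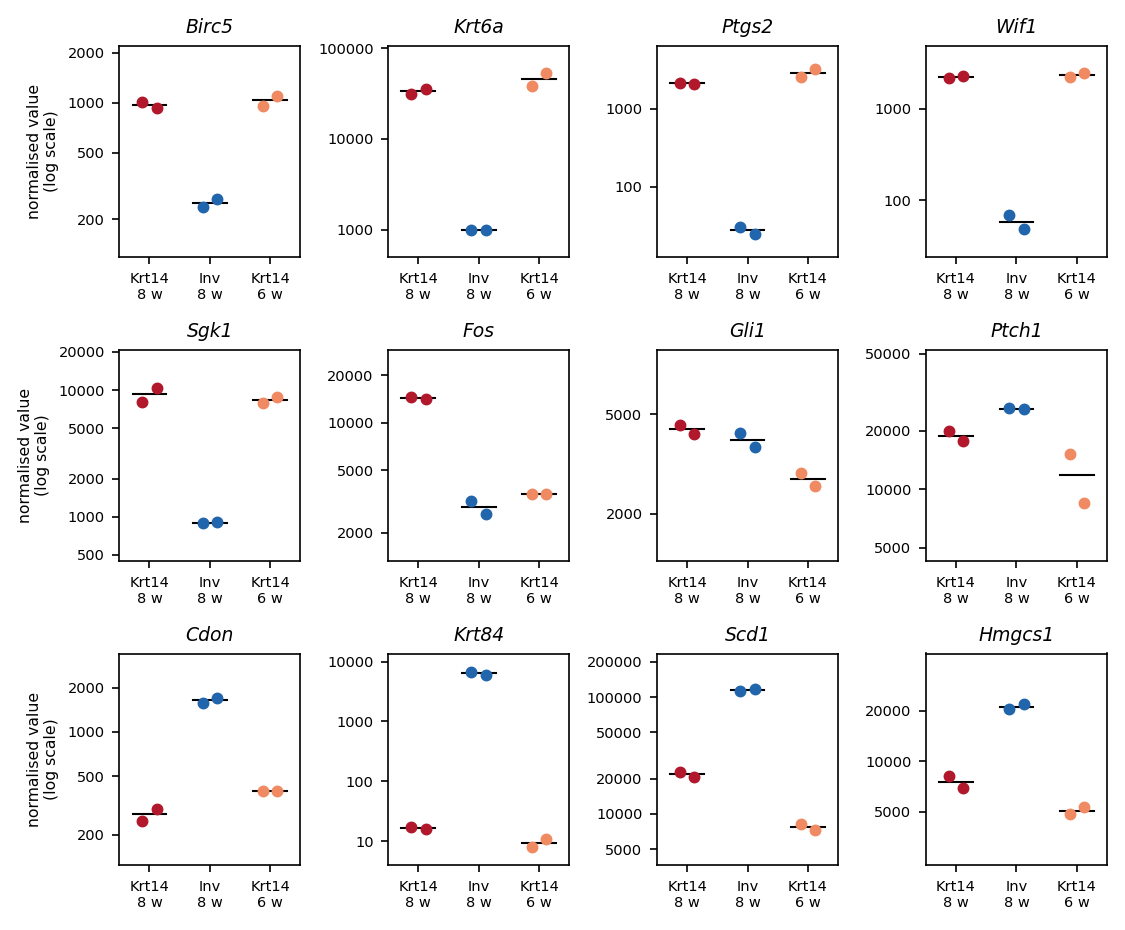
Normalised values (log scale) of 12 genes in each library of 3 groups, Krt14 at 8 weeks, Inv at 8 weeks and Krt14 at 6 weeks, with 1 point a library and a line at the mean of the pair. Krt6a, Ptgs2, Wif1 and Sgk1 are high in both Krt14 groups, Krt84, Scd1, Hmgcs1 and Cdon in Inv, and Fos is high in the Krt14 group of 8 weeks alone (14589 and 14061).

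Several lists of markers of other cell types had members that differed between the groups. The shares called were 16.67% for T cell, 22.22% for endothelial and mural and 28.57% for myeloid markers. None of these was far above the 21.1% of all tested genes or the 26% of tested protein-coding genes. The shares were 33.33% for fibroblast and 45.45% for melanocyte markers, and 50% in the short Merkel cell and Schwann cell lists. The summed value of 11 melanocyte markers was 1405 and 1577 in the Krt14 libraries and 2536 and 2628 in the Inv libraries, with 5 of 11 lower and none higher (median -1.12). Dct, a pigment enzyme, was 269 and 335 against 606 and 707 (2.17-fold higher in Inv, log2 difference -1.12 ± 0.16, limma adjusted p = 0.00061), and Tyr, tyrosinase, 49 and 54 against 176 and 220. With any 1 library left out, 3 of the 11 were called lower. Their part in the falls of other genes was not tested. Of 9 tested fibroblast markers, 2 fell and 1 rose, and the summed value of all 11 listed was 8071 and 7078 against 21001 and 22841. Dcn, decorin, was 2235 and 1574 against 17515 and 19565 (9.73-fold higher in Inv, -3.30 ± 0.38, limma adjusted p = 0.00016), and makes up most of the Inv sums, and the collagen gene Col1a2 also fell, at 40 and 26 against 237 and 238 (7.20-fold higher in Inv, limma adjusted p = 0.0115), a call lost without Krt14 library 2, Inv library 1 or Inv library 2. Its partner Col1a1 was 102 and 138 against 105 and 111, and Dpt was at 0 in all 4 libraries. Fbln1 moved the other way, at 4396 and 4078 against 1768 and 1604. Of 9 tested mesenchymal transition genes, 4 rose and 1 fell. Snai2, a repressor also active in basal keratinocytes, rose at 2483 and 2591 against 1677 and 1507 (0.67 ± 0.10, limma adjusted p = 0.0012). Fn1 and the epithelial markers Cdh1 and Epcam rose too, while Vim was not called. Twist2 fell, at 10 and 6 against 39 and 57 (-2.46 ± 0.75, limma adjusted p = 0.0387), all low values. That call was lost without any 1 library and without the filter on low values.

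The 6 tested T cell markers gave 1 fall, Thy1, at 56 and 80 against 508 and 529, and the summed value of all 11 was 398 and 441 against 810 and 832. Myeloid markers summed to 630 and 908 against 945 and 880, and endothelial and mural markers to 5563 and 5299 against 6127 and 5098, mostly Cspg4. The sums are over all 12 and all 11 markers listed. Of 7 tested myeloid markers, Cd74 fell (100 and 230 against 485 and 477) and H2-Eb1 rose (72 and 128 against 39 and 21). Both calls were lost with some library left out. In the endothelial and mural list Kdr and Tek fell from low values, and neither was called without Krt14 library 2, Inv library 1 or Inv library 2. Of 4 tested Merkel cell markers, 2 rose, Piezo2 (213 and 329 against 62 and 61) and Krt18 (107 and 97 against 12 and 7, lost without any 1 library), while Atoh1, which defines these cells, had no value above 5 in any of the 4 libraries. Among 6 Schwann cell markers, Egr2, which is also an immediate early gene, and Ngfr rose and Mbp fell, the call of Ngfr (limma adjusted p = 0.0489) being lost without any 1 library and in 4 other alternatives. The 4 listed haemoglobin genes were at 0. None of 35 ribosomal protein genes, 14 tested mitochondrially encoded genes or 5 sex-linked transcripts was called by limma, with 3, 0 and 0 of them at an unadjusted p under 0.05 and none called in the fit to recovered reads. Other alternatives called a few of them, namely Rplp1 higher with median-of-ratios rescaling, with array weights and without Inv library 1, Rpl11, Rpl3 and Rps19 lower with array weights (Rpl11 also when only the 4 libraries were fitted or without the Survivin GOF group, Rpl3 also with quantile normalisation), mt-Rnr2 lower with quantile normalisation, and Eif2s3y lower when only the 4 libraries were fitted. Ddx3y, on the Y chromosome, was 2453 and 2489 against 2626 and 2909, and Xist had 51 and 118 against 194 and 145. The groups do not overlap for either transcript, and neither was called. Their SEs were large (0.41 for Ddx3y and 0.73 for Xist), because the shared spread includes uneven pairs. In the Survivin GOF libraries Xist was 7589 and 56185 and Ddx3y 3328 and 970, and in the Survivin LOF libraries Xist was 30024 and 59594. The lack of a call for sex-linked transcripts therefore cannot show that the compared groups match in them.

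**Figure D4:**
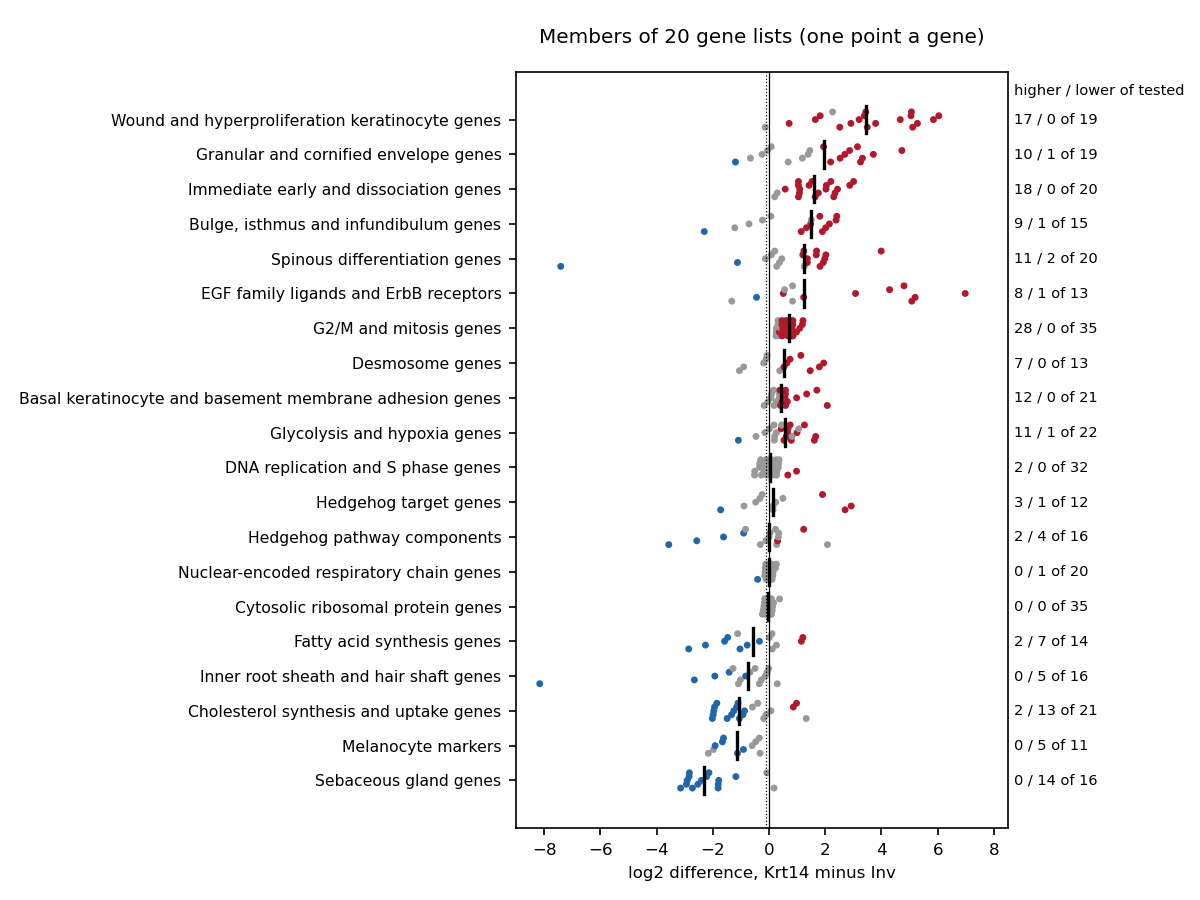
Log2 difference (Krt14 minus Inv) of each tested member of 20 gene lists, with members called higher in red, called lower in blue and not called in grey, a black bar at the median of the list and a dotted line at the median of all tested genes (-0.09). Medians run from 3.44 for wound genes to -2.31 for sebaceous gland genes, and the lists for S phase (0.05), respiratory chain and ribosomal protein genes stay close to 0.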

How the data were processed

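Bulk RNA-seq libraries were made from sorted SmoM2-YFP-positive epidermal cells, and reads were aligned to GRCm38 (mm10) with STAR and counted per gene with HTSeq, per the submitters' processing notes. Those notes give no versions, and strandedness is not stated. The deposited values are normalised read counts, treated here as a score because they are rounded to whole numbers. A gene was tested if 2 of the 4 libraries had a value of 10 or more, with limma 3.58.1 in R 4.3.3 on log2(value + 1). The added 1 is less than 1 read, which corresponds to a value of 2.26 to 2.55 in these libraries. Where a group is at or near 0, the size of the log2 difference therefore depends on it. All 10 libraries in 5 groups shared 1 estimate of the spread (5 residual degrees of freedom), and p-values were Benjamini-Hochberg adjusted over 20559 genes. Folds in the text are ratios of group means, with 3 reads in place of a group at 0. Genes were annotated with GENCODE M21, and promoter windows are the 250 bases before the start in RefSeq's GRCm38.p6 table. Named genes are 8 fixed genes, the 12 largest rises and falls with a mean of at least 50, the 3 called members with the smallest p per list and direction, the 2 highest markers of each other cell type and the sex-linked transcripts. The comparison, lists and alternatives were chosen with earlier results of these data known. Alternatives covered pseudocount, filter, scaling, samples in the fit, variance model, replicate block, left-out libraries and a fit to reads recovered from the values. Some genes are not reported here.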

Additional observations from a re-analysis of the deposited data

How the results depend on the processing

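With 1 of the 4 libraries left out, the number of changed genes ranged from 1975 to 2319 beside 4343 with all, and the share higher in Krt14 from 42.8% to 52.7% beside 41.7%. The fits with a library left out hold fewer samples by construction. That share was 51.5% with median-of-ratios rescaling and 49.4% with quantile normalisation. The number was 7144 with array weights, 2217 at an adjusted p of 0.01 and 2348 when a 2-fold change was also required, the last 2 being stricter by construction. Fewer groups in the fit raised the number, to 6501 when only the 4 libraries were fitted and to 6049 without the Survivin GOF group. These fits, other pseudocounts and filters, and variance models other than array weights gave counts within 1.5 times the number reported. Among them was 4717 in the fit to recovered reads. No changed gene took the opposite sign in any fit, which says little, since these genes were chosen for a difference in the same libraries. Of 174 called named genes, 122 kept their call in every alternative, 52 lost it with some library left out, and 24 lost it elsewhere too. With the replicate number as a replicate block, 4302 genes were called and 41.4% of them were higher. Deviations of same-numbered libraries of the 2 groups correlated at -0.076, which gave no sign that the numbers pair the libraries. Depth limits low genes, since 3 reads correspond to a value of about 7.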

Other observations

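Several gene families outside the lists above were looked at after their values had been seen, so their counts are descriptions. Of 8 tested kallikreins, a family of secreted serine proteases, 6 rose and none fell (median log2 difference 2.92, beside -0.09 over all tested genes). Besides Klk10 and Klk7, Klk13 was 225 and 238 in the Krt14 libraries against 16 and 12, and Klk6 was 75 and 64 and listed at 0 in both Inv libraries, at least 10.2-fold higher. Of 5 beta connexins, which form channels between keratinocytes, 4 rose. Pthlh, the parathyroid hormone-like hormone of keratinocytes, was 2612 and 3043 against 107 and 89 (28.9-fold, 4.84 ± 0.21, limma adjusted p = 1.97e-06). Of 12 tubulins, 9 rose (median 0.86), among them Tubb6 at 602 and 618 against 85 and 68. Of 9 ephrin receptors, 6 rose (median 0.76), with Ephb2 at 317 and 386 against 39 and 30.

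In the next families more members fell than rose. Of 8 guanylate-binding proteins, interferon-inducible GTPases, 6 fell, among them Gbp7 at 12 and 0 in the Krt14 libraries against 89 and 107, all low values. The members that fell passed the level filter only through their Inv values, so they could be counted only as lower or not called. Of 34 Hox genes, 7 fell and none rose, with Hoxa7 at 482 and 526 against 917 and 994 (-0.92 ± 0.13, limma adjusted p = 0.000514). Of 37 cytochrome P450 genes, 15 fell and 3 rose. Cyp27b1, which activates vitamin D, was 107 and 90 against 1172 and 1172 (11.9-fold higher in Inv). Of 358 zinc finger genes with Zfp symbols, 78 fell and 6 rose (median -0.38). Over all tested genes 12.3% fell and 8.81% rose, and protein-coding genes were called more often (26% against 21.1%). Among 64 histone genes the balance was the other way, and 18 rose and 3 fell (median 0.38), with Hist1h3f at 3107 and 3058 against 1903 and 1443. Histone genes share near-identical sequence, so reads could have been split or dropped between copies.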
